A study of Homo sapiens with 24 samples.

Results

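The nuclear-encoded subunits of the oxidative phosphorylation enzymes were measured on 24 one-colour Agilent arrays of 2 human lung adenocarcinoma cell lines. Members were taken by gene symbol: the NDUF subunits of complex I, SDHA to SDHD of complex II, 8 UQCR genes of complex III, the numbered COX4 to COX8 genes of complex IV and the ATP5 genes of complex V. They came to 81 genes, read by 104 probes, of 25992 gene symbols and 34127 probes on the array. Complex I held 37 of them, complex II 4, complex III 8, complex IV 14 and complex V 18, and the brightest probe stood for each gene. The symbols are those of the array design. By accession, 80 of the 81 were found in RefSeq, 19 of them under another current symbol, among them ATP5G1 (now ATP5MC1) and ATP5SL (now DMAC2). The pattern of symbols left out some subunits of the same enzymes, such as COX4I1 and CYC1, and took in ATP5SL, ATP5S and ATP5L2, which are not established subunits of the ATP synthase. It also places NDUFA4 in complex I by its symbol, although this gene (now COXFA4) is held to encode a complex IV subunit.

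A549 and H1975 cells were kept for 6 h or 24 h with Pirfenidone, an oral drug used against lung fibrosis, at 0.75 mg/ml, or with an equal volume of phosphate-buffered saline (PBS). The 2 lines, 2 times and 2 treatments gave 8 groups of 3 arrays of total RNA. Each group stands for 1 established line in culture, and no other cell type was cultured with it. The labels number the arrays as replicates without saying that they came from separate cultures, so the spread between them may be technical. The deposited files fall into 4 runs, a run being the arrays that carry the same date, and what was done on that date is not stated. Every group had 1 array in each of 3 runs, and runs 1 and 3 held both lines. The arrays lay on 7 slides, 1 for each line and run apart from PBS 24 h replicate 1 of H1975, which was on a slide of its own. That array was also scanned on another day than the H1975 Pirfenidone 24 h array of its run. Pirfenidone 6 h always lay at place 1 of a slide, PBS 6 h at 2, Pirfenidone 24 h at 3 and PBS 24 h at 4. Treatment and time therefore cannot be told apart from the place on the slide.

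Oxidative phosphorylation passes electrons from NADH (complex I) or succinate (complex II) through complex III and cytochrome c to oxygen at complex IV. Complexes I, III and IV pump protons across the inner mitochondrial membrane, and complex V, the ATP synthase, uses the gradient to make ATP. Most subunits are encoded in the nucleus and imported, and a small catalytic set is made inside the organelle. Transcription factors of the NRF1, ETS and YY1 classes are known for binding near the start sites of many of the nuclear genes.

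The letters bound by these factors can be read in the promoters of some of the genes that differed between the lines, and the stretches shown were chosen from those. The 30-base stretches below come from RefSeq windows of GRCh38.p14 and run 5′ to 3′ along the gene's strand. Capitals mark the matched letters. The first pair holds the NRF1 motif, in a gene higher in H1975 (SDHD) and one lower (ATP5C1).
SDHD, chr11:112086753-112086782, plus strand: agctgtgtttGCGCATGCGCgacgggtgtg
ATP5C1, chr10:7788145-7788174, plus strand: gggagcttcgGCGCATGCGCgctgaggcct
The second pair holds the ETS letters, and is shown because COX6B1 and NDUFA13 are among the genes with the largest differences between the lines, in opposite directions. In COX6B1 the capitals are the reverse complement.
COX6B1, chr19:35648300-35648329, plus strand: acctctctcagCTTCCGGctggtagtagtt
NDUFA13, chr19:19516204-19516233, plus strand: tccgcccgggaCCGGAAGtgtgggatactg
The last pair holds the YY1 letters just after the start site of a pair of complex I genes higher in H1975.
NDUFA6, chr22:42090729-42090758, minus strand: gatgctttggcAAGATGGCggggagcggcg
NDUFA7, chr19:8321343-8321372, minus strand: atcgcggacggAAGATGGCgtccgccaccc

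Windows from 250 bases before to 50 bases after a start site were found for 66 of the 81 genes, 78 windows in all. Both strands were searched for the degenerate NRF1 motif and for CCGGAAG (ETS) and AAGATGGC (YY1). An ETS match that goes on as ATGGC also matches the YY1 letters. The NRF1 motif stood in 19.2% of the members' windows, against 3.3% of all 35116 windows and 4.16% of the 22199 windows of protein-coding genes. The ETS letters stood in 25.6%, against 10.3% and 12.8%, and the YY1 letters in 16.7%, against 2.89% and 3.53%. The NRF1 motif was found in 31.2% of the complex V windows and in 7.69% of the complex IV windows, and the YY1 letters in 0 of the 13 complex IV windows. At least 1 of the 3 was found for 37 genes. The windows of ATP5G1, UQCRFS1, ATP5SL, COX8C and NDUFV1, among the genes described most closely below, held none of these letters. A match is a description of the sequence and not a measured binding site.

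Levels are given as log2 of the array's processed signal minus the 75th percentile of that array, so a level of 0 is that percentile; a level of one probe is not set against that of another. Between 62.7% and 69.5% of probes were well above background on each array, and none was saturated. Of the 81 members, 75 stood well above background on each of the 24 arrays and 79 were tested. COX7A1, the muscle and heart form of subunit 7A, was not well above background on any array. COX7B2, a testis form, was above it on 2 arrays, and neither was tested. COX6A2, the muscle form of subunit 6A, was above background on 14 arrays, and COX8C, a testis form of subunit 8, on 13. NDUFA9 lacked a value on Pirfenidone 6 h replicate 1 of H1975 and SDHD on Pirfenidone 24 h replicate 1, because of outlier spots. The within-group SD of the tested members had a median of 0.133 and ran from 0.0801 to 0.497, against a median of 0.249 over all 23827 probes tested. The labelled epithelial origin was checked on 5 epithelial markers (EPCAM, KRT8, KRT18, KRT19 and CDH1), which were above background on all arrays. Of the markers of fibroblasts and endothelial cells, CDH5 was above background on every array, and COL1A2 and PECAM1 on every H1975 array and on no A549 array.

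The first question was whether Pirfenidone changed the subunit transcripts. In A549 no member changed by the test at either time. At an adjusted p of at most 0.05 with at least a 2-fold change (limma, Benjamini-Hochberg over all probes tested), 0 of 79 members were called at 6 h, where 0.176% of all probes were. At 24 h 0 were called as well, with 0.0126% of all probes. Without the fold limit the counts were again 0, beside 0.34% and 0.0126% of probes. At an unadjusted p under 0.05 there was 1 member at 6 h (COX8C, not well above background in either group) and 0 at 24 h, beside 6.01% and 0.953% of probes. The 95% confidence interval of the change lay within 2-fold for 78 of 79 members at each time.

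The median change of the members in A549 was -0.04 at 6 h, with 66 lower and 13 higher, against -0.01 over all probes, of which 47% were higher. Within runs 1, 2 and 3 it was -0.07, -0.03 and -0.03, with 70, 56 and 56 members lower, and over all probes -0.03, 0.0045 and -0.03. At 24 h it was -0.01, with 46 lower and 33 higher, against -0.02 over all probes. The runs then differed in sign, with -0.04, 0.04 and -0.02. At 6 h the 3 Pirfenidone arrays lay entirely below the 3 PBS arrays for 8 members, 10.1% against 8.24% of all probes. These were ATP5E, ATP5G1, ATP5G2, ATP5H, NDUFA11, NDUFB4, NDUFS3 and UQCRFS1. At 24 h they did so for 0 members, and lay entirely above for 0, beside 1.25% and 0.571% of all probes. At 6 h they lay entirely above for COX8C alone, beside 7.03% of all probes. The lowest value of each complex in A549 at 6 h was -0.14 for NDUFA5, -0.09 for SDHA, -0.16 for UQCRFS1, -0.22 for COX6B2 and -0.12 for ATP5G3. At 24 h the lowest were -0.07 for NDUFB5, -0.08 for SDHC, -0.11 for UQCRB, -0.09 for COX6C and -0.05 for ATP5J. The highest in complexes I to V at 24 h were NDUFA9 at 0.14, SDHB at 0.03, UQCRC1 at 0.03 and ATP5B at 0.11. In complex IV the highest fitted values were those of COX6A2 and COX8C, which were not well above background on any A549 PBS array, so no size is given for them. None of these passed the test.

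**Figure D1:**
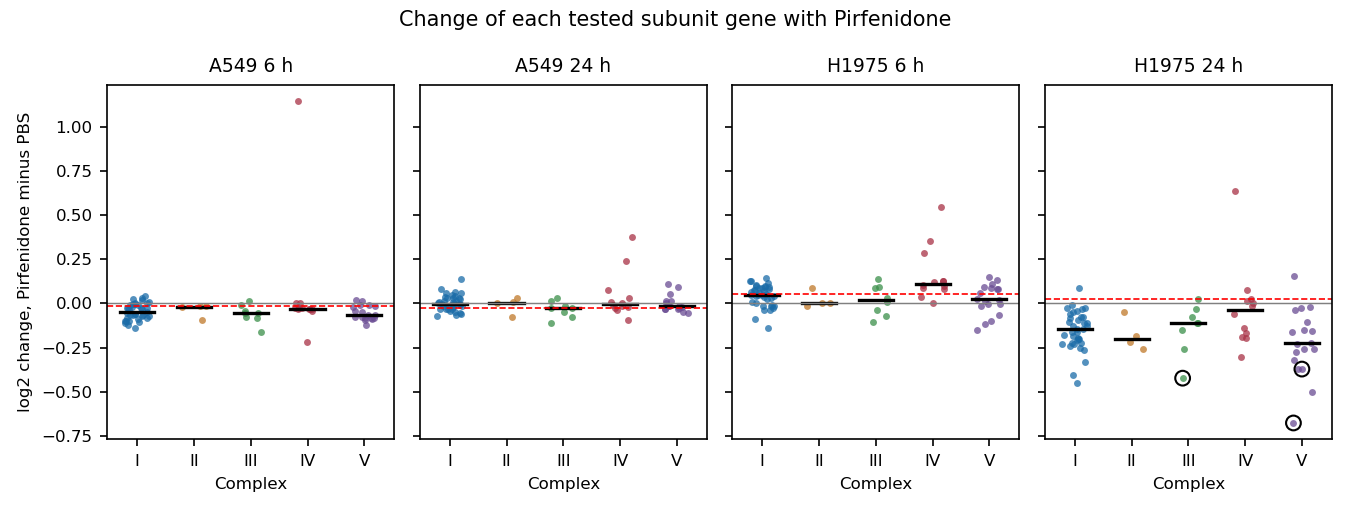
Change of each of the 79 tested subunit genes with Pirfenidone (log2, Pirfenidone minus PBS), by complex, in each line and at each time; black bars are the medians of the complexes, red dashed lines the medians of all 23827 probes tested, and rings mark genes at an adjusted p of at most 0.05. In H1975 at 24 h 71 of 79 points lie below 0 and 3 are ringed; the highest point of A549 at 6 h is COX8C, which was not well above background there.

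In H1975 at 6 h no member was called. The counts were 0 of 79 with the fold limit (0.491% of all probes), 0 by adjusted p alone (1.41%) and 0 at an unadjusted p under 0.05 (11%), all by limma. The median change was 0.05 for the members and 0.05 for all probes. The interval of the change lay within 2-fold for 77 members. All 12 tested complex IV genes had values above 0, with a median of 0.11 (59% of all probes lay above 0), from COX7B at 0.0048 to COX8C at 0.55 (adjusted p = 0.707). The runs did not share this: within run 1 the complex IV median was -0.06, with 9 of 12 genes lower. Within runs 3 and 4 it was 0.26 and 0.11, with 12 of 12 higher in each. ATP5SL was the lowest member, at -0.15. The Pirfenidone arrays lay entirely below the PBS arrays for ATP5SL and entirely above for COX8C, 1.27% of members each, beside 7.16% and 10.6% of all probes.

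After 24 h in H1975, most members had lower values with Pirfenidone, and 3 of them fell by the test. These were ATP5G1, one of 3 genes for the same c subunit of the ATP synthase rotor, UQCRFS1, the Rieske iron-sulfur protein of complex III, and ATP5SL, a complex I assembly factor under its current name DMAC2. No member was called with the fold limit, where 1.89% of all probes were. By adjusted p alone the 3 were 3.8% of the members, against 6.26% of all probes in either direction and 3.35% in the lower direction. The count is thus near the share of all probes that fell. At an unadjusted p under 0.05 there were 14 members, all lower, 17.7% against 22% of probes in either direction and 10.8% in that one. The interval of the change lay within 2-fold for 78 of 79. In RNA from whole cultures, fewer cells that hold a transcript and less transcript per cell cannot be told apart.

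The level of ATP5G1 was 3.80, 3.71 and 4.08 in the PBS arrays at 24 h and 3.24, 3.24 and 3.08 with Pirfenidone. Every treated array lay below every PBS array, and ATP5G1 fell by 0.68 on the log2 scale (SE 0.139, adjusted p = 0.010, limma). At 6 h the gene's difference was not past the test in either line. In the array design its probe spans chromosome 17, positions 46970798 to 46971772 (hg19).

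UQCRFS1 read 4.51, 4.61 and 4.80 with PBS and 4.24, 4.28 and 4.13 with Pirfenidone. The groups did not overlap, and the transcript fell by 0.42 (SE 0.110, adjusted p = 0.0298, limma). ATP5SL read 1.59, 1.61 and 1.58 with PBS and 1.29, 1.34 and 1.03 with Pirfenidone, again with no overlap. It fell by 0.37 (SE 0.0934, adjusted p = 0.0255, limma). Within the runs 1, 3 and 4, each of which held 1 array of either group, ATP5G1 differed by -0.996, -0.56 and -0.47, UQCRFS1 by -0.67, -0.26 and -0.34 and ATP5SL by -0.55, -0.30 and -0.26. The direction was the same in all 3 runs, and run 1 gave the largest difference for each gene. Without the 2 arrays of run 1, none of the 3 genes passed the test (ATP5G1, adjusted p = 0.222, limma), and without PBS replicate 3 alone ATP5G1 was at an adjusted p of 0.0511. With run as a block 8 members passed by adjusted p, and with slide as a block 11. Fewer than 3 passed with another background correction, and none with only the arrays compared.

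**Figure D2:**
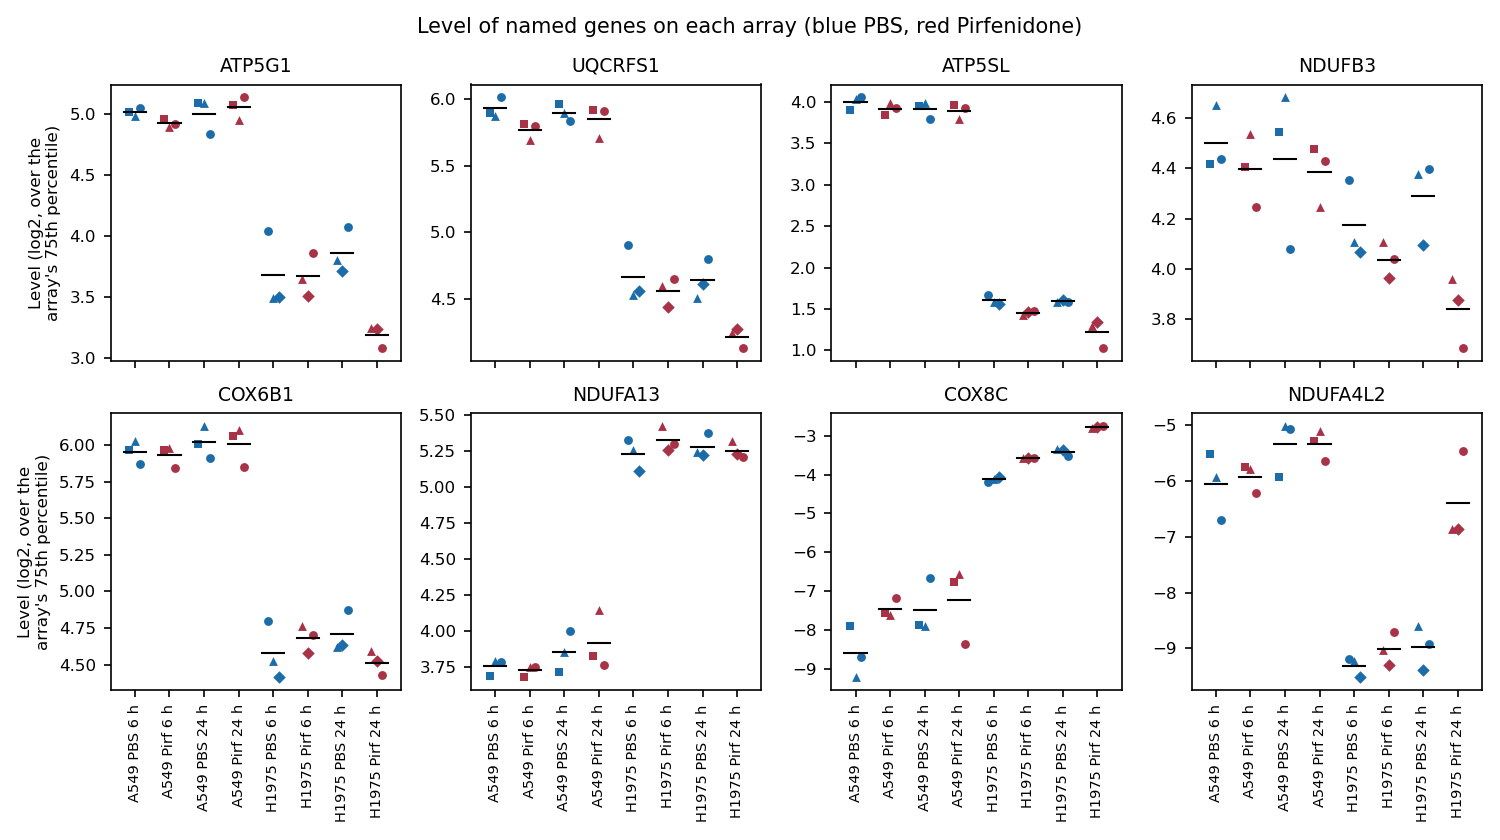
Level of 8 genes on each of the 24 arrays (log2, over the array's 75th percentile), by group; blue is PBS, red Pirfenidone, black lines are means, and circles, squares, triangles and diamonds are runs 1, 2, 3 and 4. ATP5G1, UQCRFS1 and ATP5SL are lower in H1975 with Pirfenidone at 24 h than with PBS; the A549 values of COX8C (other than 1 Pirfenidone 24 h array) and the H1975 PBS values of NDUFA4L2, a gene outside the set, were not well above background.

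The other c-subunit genes differed from each other. ATP5G3 read 6.07, 6.10 and 6.55 with PBS and 5.87, 5.86 and 5.88 with Pirfenidone, a difference of -0.37 (adjusted p = 0.0926, limma). ATP5G2 read 5.77, 5.69 and 5.74 against 5.74, 5.69 and 5.71, a difference of -0.02 (adjusted p = 0.934). The mature c subunit made from the 3 genes is the same protein, since they differ in the import sequence.

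Sorted by role, complex V had a median of -0.22 at 24 h in H1975, with 17 of 18 genes lower, ATP5SL, ATP5S and ATP5L2 included. The catalytic head and central stalk (ATP5A1, ATP5B, ATP5C1, ATP5D and ATP5E) had 5 of 5 lower and a median of -0.22, and the peripheral stalk, which holds the head still, 4 of 4 and -0.19. Of the small membrane subunits, ATP5J2 had the lowest value, -0.50 (adjusted p = 0.130, limma), and its second probe gave -0.44. The highest value among these 18 genes was 0.16 for ATP5S, which is not an established subunit. Only ATP5G1 and ATP5SL of the 18 passed the test, and ATP5SL is likewise not an established subunit of the ATP synthase.

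Complex I had 36 of 37 genes lower, with a median of -0.15. Its 7 core subunits, which carry the flavin and the iron-sulfur clusters, had 7 of 7 lower and a median of -0.20, and the 30 genes grouped as its accessory subunits, NDUFA4 (-0.03) included, 29 lower and -0.14. NDUFB3, an accessory subunit of the membrane arm, read 4.38, 4.09 and 4.40 with PBS and 3.96, 3.88 and 3.69 with Pirfenidone, with no overlap. The difference was -0.45 and missed the threshold (SE 0.144, adjusted p = 0.0702, limma). NDUFS4, an accessory subunit needed for assembly of the NADH-binding module, was the highest, at 0.09, and its Pirfenidone arrays (3.41, 3.46 and 3.43) lay just above the PBS arrays (3.38, 3.41 and 3.26).

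In complex II all 4 genes were lower, from -0.26 for SDHA, the flavoprotein that oxidises succinate, to -0.05 for SDHC, a membrane anchor. The 3 further SDHA probes gave -0.29, -0.31 and -0.23. In complex III 7 of 8 were lower, with a median of -0.11 and UQCRB, a small ubiquinone-binding subunit, the highest at 0.02. In complex IV 7 of 12 were lower, with a median of -0.04. The order of the complexes was not the same in every run: complex III had medians of -0.28, -0.0064 and -0.017 within runs 1, 3 and 4, and complex IV -0.27, -0.049 and -0.0045. Its lowest gene was COX7B, at -0.30 (adjusted p = 0.149, limma). Of the genes of complexes II, III and IV, UQCRFS1 alone passed the test.

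The members' median in H1975 at 24 h was -0.15, with 71 of 79 lower, whereas over all probes it was 0.02 with 47.1% lower. For 31 members the Pirfenidone arrays lay entirely below the PBS arrays, 39.2% against 15.6% of all probes, and for 2 entirely above (NDUFS4 and COX8C), 2.53% against 16.3%. The size of the shift varied with the run. Within run 1 the median was -0.31 with 74 members lower, within run 3 it was -0.06 with 53 lower and within run 4 it was -0.09 with 59 lower. Over all probes the 3 runs gave -0.0039, 0.02 and 0.04. Of the 6 arrays, PBS replicate 3 held the highest value for 50 of 79 members and Pirfenidone replicate 3 the lowest for 37, and both belong to run 1. Without these 2 arrays the median was -0.06 with 61 of 79 lower. The part of the run in this result was not tested beyond these values, and that of the place on the slide cannot be told apart from treatment.

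Averaged over the 75 genes measured above background throughout, each centred on its own mean over the arrays, the PBS 24 h arrays of H1975 stood at -0.03, -0.01 and 0.15 and the Pirfenidone arrays at -0.11, -0.10 and -0.16. The group means were 0.04 ± 0.10 and -0.12 ± 0.03 (SD, n = 3), and the groups did not overlap. The PBS 6 h array of run 1 was likewise at 0.15, while the remaining PBS arrays of H1975 lay between -0.16 and -0.01. At 6 h the run medians of the drug difference did not share a sign: -0.08 in run 1 with 69 members lower, 0.16 in run 3 with 75 higher and 0.06 in run 4 with 59 higher.

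**Figure D3:**
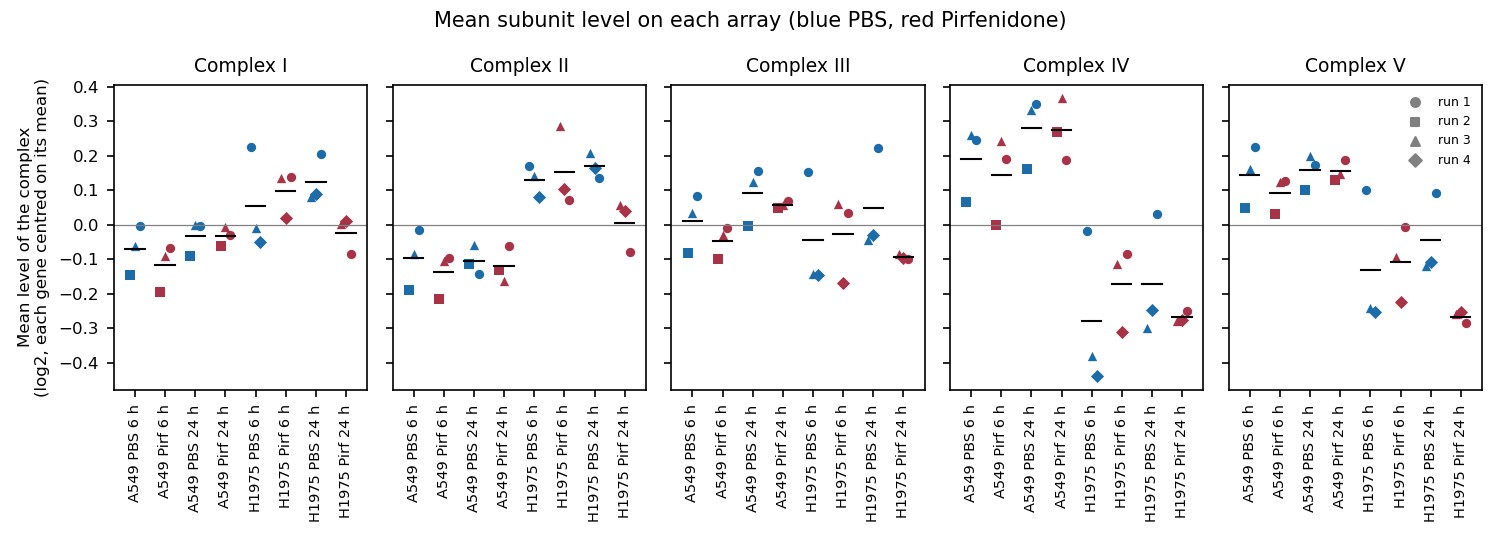
Mean level of the subunit genes of each complex on each of the 24 arrays (log2, each gene centred on its mean over all arrays), by group; blue is PBS, red Pirfenidone, black lines are group means, and the symbols mark the runs. The H1975 PBS arrays of run 1 (circles) stand above the other H1975 PBS arrays in complexes I, III, IV and V, and the 3 Pirfenidone 24 h arrays of H1975 lie below the PBS 24 h arrays in complexes I, II, III and V.

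COX8C was the member with the highest value in H1975 at both times. The transcript read -4.19, -4.10 and -4.07 in the PBS 6 h arrays of H1975 and -3.56, -3.58 and -3.57 with Pirfenidone. At 24 h it read -3.35, -3.35 and -3.52 with PBS and -2.80, -2.76 and -2.75 with Pirfenidone. The groups did not overlap at either time, yet the difference of 0.64 at 24 h missed the threshold (SE 0.383, adjusted p = 0.358, limma). That fit takes in the A549 arrays, where the probe was near background and scattered. With only the 6 arrays compared, the SE was 0.10 and the adjusted p 0.051 (limma), which also missed the threshold.

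The difference between the drug changes of the lines was tested as an interaction. By adjusted p, 0 members passed at 6 h and 0 at 24 h (limma), beside 0.0378% and 0.239% of all probes, and at an unadjusted p under 0.05 there were 0 and 5, beside 2.63% and 12.2%. The 5, all more negative in H1975 at 24 h, were ATP5G1 (-0.73, adjusted p = 0.131), NDUFA9, UQCRFS1, ATP5SL and ATP5A1. They were 6.33% of the members, near the 5.72% of all probes in that direction. The median difference of the members was -0.16 at 24 h, against 0.06 over all probes. Between the times, 0 members passed in A549 and 0 in H1975 (0.0294% and 0.00839% of all probes), with 0 and 3 at an unadjusted p under 0.05 (3.04% and 5.86%). The 3 were all more negative at 24 h, 3.8% of the members against 4.01% of all probes in that direction. In H1975 the drug change was more negative at 24 h than at 6 h for 75 of 79 members, with a median of -0.21 against -0.03 over all probes. These comparisons share their PBS arrays with those above.

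With time in PBS alone, 0 members passed by adjusted p in A549 and 0 in H1975 (limma), beside 0.134% and 0.663% of all probes, and 1 (COX8C, not well above background in A549) and 0 at an unadjusted p under 0.05, beside 8.49% and 10.6%. The medians from 6 h to 24 h were 0.05 in A549 and 0.08 in H1975, against 0.02 and 0.04 over all probes. The fitted values of all 12 tested complex IV genes lay above 0 in both lines, with medians of 0.10 and 0.12, where 54.3% and 57.5% of all probes did. None of them passed the test, and in A549 COX6A2 and COX8C were not well above background in either PBS group.

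The lines themselves differed far more than the treatments did. In PBS at 6 h, H1975 differed from A549 by at least 2-fold for 8 members at an adjusted p of at most 0.05, 4 higher and 4 lower. These are 10.1% of the members, against 32.4% of all probes. COX8C, among the 4 higher, was not well above background on any A549 PBS array and passed the filter on dim probes only through H1975. By adjusted p alone there were 46, 19 higher and 27 lower, 58.2% against 58.6% of probes. At 24 h there were again 8 with the fold limit (32.9% of all probes) and 45 without it, 57% against 59.2%. At both times 42 passed, all 42 in the same direction, and the 8 were the same genes. Both lines shared runs 1 and 3, and within each of these runs all 46 and all 45 had the direction of the full comparison. The median distance between the differences at the 2 times was 0.06, and the largest was 0.42, for COX8C.

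**Figure D4:**
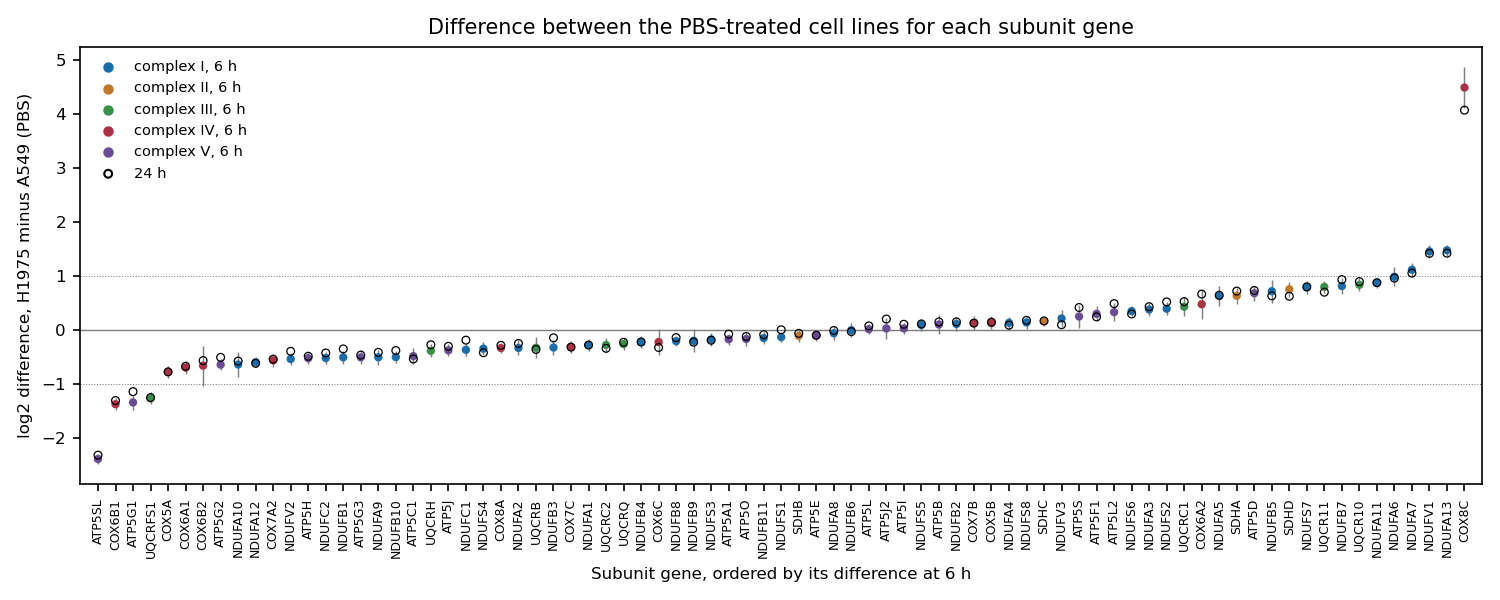
Difference between H1975 and A549 in PBS for each of the 79 tested subunit genes (log2, H1975 minus A549), in order of the difference at 6 h; filled points coloured by complex are 6 h with their standard errors, open circles are 24 h, and dotted lines mark a 2-fold difference. At both times 4 genes lie above the upper dotted line and 4 below the lower one. COX8C, among the upper 4, was not well above background in A549 PBS.

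Of the 4 higher genes, 3 belong to complex I. NDUFA13, an accessory subunit also known as GRIM-19, read 3.69, 3.80 and 3.79 in A549 and 5.33, 5.26 and 5.11 in H1975 at 6 h. It was higher in H1975 by 1.48 (SE 0.106) at 6 h and 1.42 at 24 h. NDUFV1, the core subunit that binds NADH, read 4.70, 4.53 and 4.90 against 6.20, 6.16 and 6.13, higher by 1.46 (SE 0.121) and 1.42. NDUFA7, an accessory subunit, read 3.54, 3.64 and 3.67 against 4.68, 4.75 and 4.76, higher by 1.12 (SE 0.129) and 1.05. The 3 genes were separated between the lines on every PBS array at 6 h.

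The fourth was COX8C, which was not well above background on any A549 PBS array and so could pass the filter on dim probes only through H1975. Set against the background of those arrays, it was at least 6.74-fold higher in H1975 at 6 h and at least 9.98-fold higher at 24 h. The fitted differences, which use the signals below background and not these bounds, had adjusted p = 6.83e-09 and 2.69e-08 (limma). Given the filter, these are not taken as support for the difference. COX8A, the widely expressed form of the same subunit, was above background in both lines. Of the other isoform pairs, COX6A1 was lower in H1975 (-0.70 and -0.67). COX6A2 was at least 1.24-fold higher at 24 h, where its fitted difference had an adjusted p of 0.0381 (limma). At 6 h it was at least 1.13-fold higher, and the fitted difference did not pass (adjusted p = 0.133, limma). No A549 group had COX6A2 above background on all its arrays, so it too could pass the filter only through H1975. Its adjusted p is likewise not taken as support, though COX6A2 is counted among the members past the threshold at 24 h. The brightest probe of the testis form COX6B2 gave -0.66 at 6 h, whereas a second one gave 2.26, so no direction is given for it.

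Of the lower genes, ATP5SL stood furthest from A549. It read 3.90, 4.03 and 4.06 in A549 at 6 h and 1.67, 1.59 and 1.56 in H1975, a difference of -2.39 (SE 0.0934) at 6 h and -2.32 at 24 h. COX6B1, a complex IV subunit on the intermembrane side that bridges the dimer, read 5.96, 6.03 and 5.87 against 4.80, 4.53 and 4.41, a difference of -1.37 (SE 0.112) and then -1.31. ATP5G1 read 5.02, 4.98 and 5.06 against 4.04, 3.49 and 3.50, with -1.34 (SE 0.139) and -1.14. UQCRFS1 read 5.90, 5.87 and 6.01 against 4.90, 4.53 and 4.56, with -1.26 (SE 0.110) and -1.25. The 3 genes that fell with Pirfenidone in H1975 at 24 h are all among these 4, and both comparisons at 24 h use the same PBS arrays of H1975.

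Below the fold limit, the genes sorted by role as follows at 6 h. The c-subunit genes were all lower in H1975, ATP5G2 by -0.64 and ATP5G3 by -0.51 beside ATP5G1. Of the 9 widely expressed complex IV subunits 6 were lower and 0 higher by adjusted p, where 27.9% of all probes were lower and 30.7% higher, among them COX5A (-0.78), a regulatory subunit, COX6A1 (-0.70) and COX7A2 (-0.56). Of the ATP synthase head, ATP5D, the delta subunit of the central stalk, was higher by 0.68, and ATP5C1, the gamma subunit that turns inside the head, was lower (-0.48). In complex II, SDHA was higher by 0.63 and SDHD, a membrane anchor, by 0.75, and further probes gave 0.91, 0.77 and 0.84 for SDHA and 0.73 and 0.83 for SDHD. In complex III, UQCR10 and UQCR11, small subunits, were higher by 0.84 and 0.80.

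Complex I held genes of both kinds, 12 of 37 higher and 11 lower by adjusted p at 6 h, near the shares of all probes (30.7% and 27.9%). Beside those with over 2-fold differences, NDUFA6 (0.99), NDUFA11 (0.87), NDUFB7 (0.81) and NDUFS7 (0.79), a core iron-sulfur subunit, were higher, and NDUFA12 (-0.60) was lower. A second NDUFA12 probe gave -0.80, whereas a further NDUFA10 probe gave 0.38. The medians of complexes I to V at 6 h were -0.06, 0.39, -0.27, -0.33 and -0.13, and at 24 h -0.01, 0.40, -0.25, -0.32 and -0.09. Over all members the median was -0.13 at 6 h and -0.08 at 24 h, against 0.05 and 0.08 over all probes. With quantile normalization, the 24 h median over all members was 0.06, and those of complexes I and V 0.10 and 0.12.

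The members' differences between the lines, past the test or not, often had the sign of the probes near them. For the 77 members with at least 5 other tested probes within 1 Mb, the member's difference at 6 h was set against the median of its neighbours. Pearson's r across genes was 0.48 and Spearman's rho 0.66 (0.53 and 0.69 at 24 h), and without COX8C r was 0.55. The sign was shared by 55 of 77 at 6 h. Genes are not independent replicates, neighbouring windows overlap and the same arrays give both values, so these are descriptions. The same values were not worked out for genes outside the set, so they are not shown to be particular to the members.

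**Figure D5:**
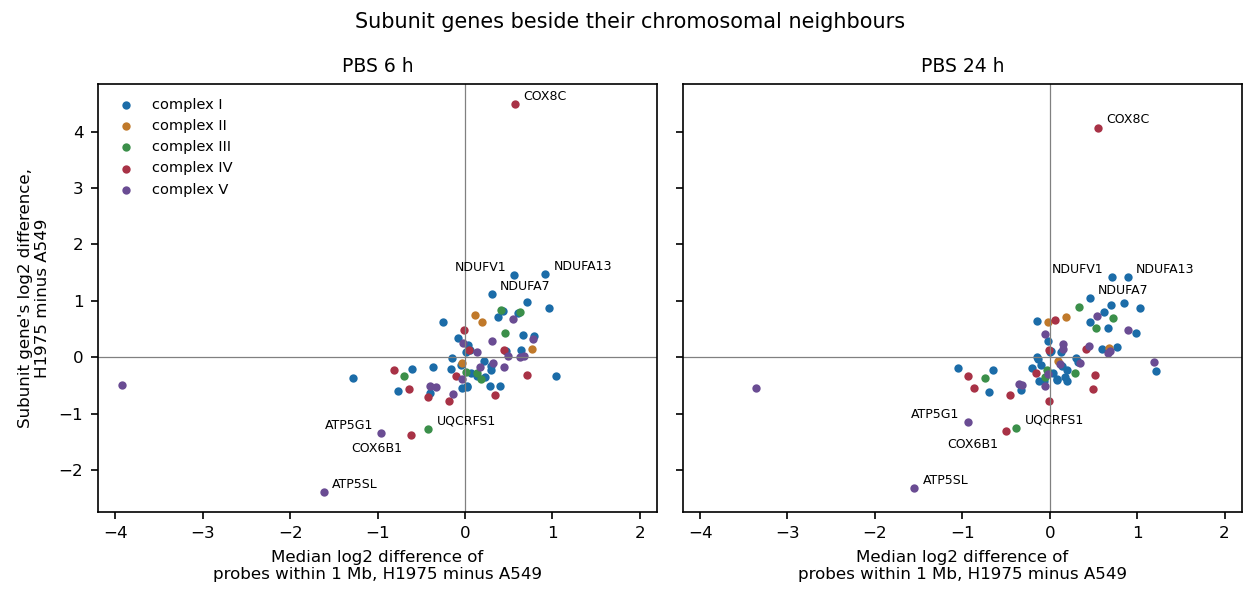
Difference of each of 77 subunit genes between H1975 and A549 in PBS (log2, vertical) against the median difference of the other tested probes within 1 Mb (log2, horizontal), at 6 h and 24 h, with colours for the complexes; genes at 2-fold or more are named. The named genes other than COX8C lie in the quadrants where gene and neighbours have the same sign, and so does COX8C, far above its neighbours.

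Chromosome 19 carried 12 tested members and showed both directions. On the short arm, taken as positions below 25 Mb of hg19, 7 of 7 members were higher in H1975, with a median of 0.81 at 6 h and 0.88 at 24 h. The other 711 tested probes there had medians of 0.95 and 0.99, and 82.1% and 83.1% of them were higher. NDUFA13 (19638092 to 19638151) and NDUFA7 (8376275 to 8376334) lie there. On the long arm 1 of 5 members was higher, with medians of -1.26 and -1.25, whereas the 911 other probes had medians of -0.09 and 0.03. ATP5SL (41937271 to 41937330), COX6B1 (36149509 to 36149568) and UQCRFS1 (29698356 to 29698415) lie there, and their neighbours within 1 Mb had medians of -1.62 over 65 probes, -0.62 over 92 and -0.42 over 7 at 6 h.

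The neighbours of ATP5G1 on chromosome 17 had a median of -0.96 over 41 probes, and those of NDUFV1 (chromosome 11, 67379945 to 67380004) 0.56 over 62. COX8C (chromosome 14, 93814553 to 93814612) stood apart from its 26 neighbours, whose median was 0.58. ATP5C1 was the reverse case, with its own difference at -0.48 beside 11 neighbours at -3.92. DNA copy number was not measured here, and its part in these differences was not tested.

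Other genes of the pathway were taken from lists of subunits outside the symbol rule, assembly factors, mitochondrially encoded subunits and regulators. In the A549 drug comparisons 0 of them passed by adjusted p at either time, beside 0.34% and 0.0126% of all probes at 6 h and 24 h. In H1975 at 24 h, 1 of the 10 tested subunits and carriers outside the rule rose and 2 fell. Of all probes, 2.91% rose and 3.35% fell by adjusted p. C14orf2, a small ATP synthase subunit, fell by 0.74 (adjusted p = 0.0262, limma) and CYCS, cytochrome c, by 0.55 (adjusted p = 0.0452). NDUFA4L2, a hypoxia-induced relative of NDUFA4, read -8.59, -9.38 and -8.93 with PBS, not well above background on any of these arrays, and -6.86, -6.85 and -5.46 with Pirfenidone. Against the background it was at least 1.84-fold higher, and the fitted difference passed the test (adjusted p = 0.000638, limma).

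Of 10 complex I assembly factors 2 fell in H1975 at 24 h, NDUFAF4 by 0.42 (adjusted p = 0.0279, limma) and FOXRED1 by 0.63 (adjusted p = 0.0229), and NDUFAF4 had fallen by 0.48 at 6 h (adjusted p = 0.0316). By adjusted p, 3.35% of all probes fell at 24 h and 0.365% at 6 h. None of the 2, 3, 13 and 2 tested assembly factors of complexes II, III, IV and V passed at 24 h. Of the 12 mitochondrially encoded subunits 0 passed, with a median of 0.23, opposite in sign to the nuclear members' -0.15. From 6 h to 24 h in PBS alone the median of these 12 was 0.20 in H1975 and 0.35 in A549. With Pirfenidone it was 0.09 in H1975 at 6 h, and 0.15 and -0.12 in A549 at 6 h and 24 h. The array design places the COX1 probe among them on a nuclear copy. Of 15 regulators 0 passed at 24 h, and at 6 h PPRC1, a coactivator of the PGC-1 family, fell by 0.61 (adjusted p = 0.0343).

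Between the lines in PBS, CYC1, the haem-bearing cytochrome c1 of complex III, was lower in H1975, with a difference of -1.07 at 6 h. ECSIT, a complex I assembly factor, was higher by 1.83 and 1.97. SDHAF1, an assembly factor of complex II, differed by -1.61 and -1.66, and ATPAF1, one of the ATP synthase, by -1.26 and -1.58. NDUFA4L2 was at least 2.58-fold lower in H1975 at 6 h and at least 3.82-fold lower at 24 h. Of the mitochondrially encoded subunits 0 of 12 passed at 6 h and 1 at 24 h, ND1, at -0.66 (adjusted p = 0.0155, limma). Of all probes, 58.6% and 59.2% passed. Of the 13 tested complex IV assembly factors 1 was called at 6 h, lower in H1975, and 0 at 24 h. With the fold limit, 15.3% of all probes were lower at 6 h.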

How the data were processed

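Total RNA was labelled with Cy3 and hybridised to 24 one-colour arrays, 3 in each of 8 groups taken from the labels. Per the file headers, the authors' scanner output came from Agilent Feature Extraction 11.5.1.1 (protocol GE1_1105_Oct12, probe positions on hg19), which subtracted background and detrended within each array but did not normalize between arrays; the deposited processed signal is an intensity. A deposited table of 34183 rows holds the authors' log2 values, centred on each probe's median, with the scaling per array not stated; it served as an alternative.

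Processed signals were put on a log2 scale and the 75th percentile over the array's 43118 non-control spots was subtracted. Outlier spots were dropped before averaging to 34127 probes. A probe was tested (23827 in all) if, in 1 group or more, each of the 3 arrays had at least 0.5 of its spots well above background. limma 3.58.1 (R 4.3.3; lmFit, eBayes) was fitted to all 8 groups with 16 residual degrees of freedom and Benjamini-Hochberg adjustment over all probes tested. A call needed an adjusted p of at most 0.05 and a log2 difference of at least 1; counts by adjusted p alone are given beside it. The scripts were tested on simulated data. For a probe not well above background in a whole group, the fold is a bound: the brighter group's mean against the dimmer group's mean of, per array, the higher of the lowest signal well above background and the probe's own. An adjusted p given for such a probe is that of the fitted difference, not of the bound. No depth of counting applies; 3 arrays a group limit the precision. Named were members past the adjusted p (at most 10 a direction) and isoform pairs. The highest and lowest of each complex in the drug comparisons were named too, as were most called genes of the other lists. Some others, such as probes without overlap, were named after their values were seen. The members and all lists were chosen with earlier results of these data known. Alternatives were other background correction and normalization (normexp with an offset of 50, quantile, the authors' values), the filter on dim probes, blocks for run, slide, scan day and replicate number, probe choice, the arrays entering the fit, and leaving out each array; the scan day block and leaving out the H1975 24 h pair of run 1 were chosen after seeing the data.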

Additional observations from a re-analysis of the deposited data

Results flagged for a closer look

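The drug change of NDUFA4L2 at 24 h differed between the lines, by the interaction test, by 2.57 on the log2 scale (H1975 minus A549, SE 0.504, adjusted p = 0.0421, limma). In A549 the gene was near the same level with PBS and Pirfenidone, and in H1975 it was not well above background on any PBS array, so the fitted size is not a bound. Against the background of those arrays the H1975 change was at least 1.84-fold. The interaction passed the threshold in 16 of 37 settings, with values from 0.48 to 2.87.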

How the results depend on the processing

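The number of members past the adjusted p in H1975 at 24 h, 3, was the least stable result: 1 with normexp, 8 with run as a block, 11 with slide as a block, 0 with only the arrays compared, 0 without the run 1 pair of H1975 at 24 h, and 0 to 4 when 1 array was left out. ATP5G1 passed in 34 of 38 settings (-0.75 to -0.52, adjusted p 0.00184 to 0.222), UQCRFS1 in 30 of 38 (-0.49 to -0.30) and ATP5SL in 30 of 37 (-0.43 to -0.27), and every value was negative. None of the 3 passed without H1975 PBS 24 h replicate 3, without Pirfenidone 24 h replicate 3, without both or with only the arrays compared. The number of lower members, 71 of 79, was 62 with quantile normalization, 70 with normexp and 75 in the authors' values. Between the lines, leaving out an array gave 8 to 9 and 7 to 9 called members, and 40 to 48 and 37 to 50 by adjusted p alone; dropping the fold limit gave 46 and 45 for 8 and 8, and 3 for 0 in H1975 at 24 h. The 24 h line median, -0.08, was 0.061 with quantile normalization, 0.0019 with the replicate block and -0.12 to -0.04 with 1 array left out. With slide as a block, 1 member passed for the drug change at 24 h between the lines. Without the A549 24 h pair of run 1, 1 member, COX8C (1.15, adjusted p = 0.0162, limma), was called and passed in A549 at 6 h, below background in both groups. COX4I2 turned to -0.13 with normexp from 1.02 in PBS at 6 h, where A549 is below background. The causes were not tested. Same-numbered arrays did not deviate together in every comparison: for A549 the correlations were 0.70, 0.58 and 0.64 (6 h) and 0.39, 0.08 and -0.10 (24 h), and for H1975 0.46, 0.53 and 0.72 (24 h) and -0.48, 0.43 and -0.68 (6 h), the one case in which numbers cross runs (0.82, 0.50 and 0.70 by run). With the replicate block, 4 members passed in H1975 at 24 h, 42 and 40 between the lines, and 9 and 9 were called. Of the values for single genes, 68 lost the threshold, 8 gained it and 1 reversed, against 3515 that did neither.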
